A study of Mus musculus with 6 samples.

Results

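Sites of Rev-erbα binding in mouse liver were examined in a pair of windows named after the genes Nfix and Tbx3. The members are the peaks of 2 deposited lists whose centres lie between 87.17 and 87.38 Mb on chromosome 8 (Nfix) or between 120.07 and 120.19 Mb on chromosome 5 (Tbx3), in build mm9. They numbered 16 of 11767 peaks, 11 in the Nfix window and 5 in the Tbx3 window. The windows were chosen for holding runs of closely spaced peaks that are mostly missing from the second list, so peak number, spacing and that absence were used in the choice and are given as description without a test.

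The samples were livers of C57BL/6 male mice aged 12 weeks on normal chow, taken at zeitgeber time (ZT) 10, near the end of the light phase, and the labels give 3 wild-type samples and 3 HNF6 KO samples, with no drug or other treatment in either group. HNF6 is a Onecut transcription factor of hepatocytes; how it was removed, and from which cells, is not stated in the labels. Chromatin immunoprecipitation used an antibody to Rev-erbα. The ZT10 list gives pooled peaks with no score, and the DBD-independent list, named for independence of the DNA-binding domain, repeats some of those peaks with a signed distance and 2 unlabelled whole numbers, called the first and second value. No value belongs to a single liver, so no spread between animals and no comparison of the genotypes can be given at any of the 16 peaks.

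Rev-erbα (gene symbol Nr1d1) is a nuclear receptor of the circadian clock that binds DNA and recruits a corepressor complex to lower transcription. It can reach the genome by direct contact of its DNA-binding domain with a half-site preceded by A and T bases, or through other DNA-bound factors, of which HNF6 is one in liver. Nfix encodes a nuclear factor I (NFI) protein, a family that binds DNA as dimers and acts in the development of many tissues. Tbx3 encodes a T-box factor, mostly a repressor, with a role in the growth of the embryonic liver.

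To show what the half-site looks like in the promoters of the named genes, RefSeq promoter sequences (build GRCm38.p6, from 250 bases before to 50 after a transcription start) were searched. No mm9 sequence was used here, so the bases under the peaks are not shown and these promoters are not placed against them. The table held 4 Nfix promoters, 1 each for Nfia, Nfic and Tbx4, and none for Tbx3, Tbx2, Tbx5 or Nfib. The core half-site AGGTCA was present on either strand in 2 of the 4 Nfix promoters, against 16.3% of all 32851 promoters. Both are printed 5′ to 3′ on the strand of the gene, with the match in capitals. Each match lies on the opposite strand and therefore reads as TGACCT.
Nfix promoter, GRCm38.p6 chr8:84775779-84776078, minus strand: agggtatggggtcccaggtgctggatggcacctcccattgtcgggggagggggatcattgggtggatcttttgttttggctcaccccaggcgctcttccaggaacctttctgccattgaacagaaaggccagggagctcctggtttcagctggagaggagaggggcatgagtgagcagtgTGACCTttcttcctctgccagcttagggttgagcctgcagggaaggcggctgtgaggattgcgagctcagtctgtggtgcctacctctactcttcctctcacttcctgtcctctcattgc
Nfix promoter, GRCm38.p6 chr8:84773361-84773660, minus strand: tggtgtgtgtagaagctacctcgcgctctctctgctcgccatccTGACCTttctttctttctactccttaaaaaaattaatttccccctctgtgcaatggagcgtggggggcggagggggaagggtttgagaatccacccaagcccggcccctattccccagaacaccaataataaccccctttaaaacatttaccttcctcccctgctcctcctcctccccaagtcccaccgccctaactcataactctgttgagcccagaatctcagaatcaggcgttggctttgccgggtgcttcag
Counted from 1 at the 5′ end, the match takes bases 181 to 186 of the first sequence and bases 45 to 50 of the second. No other motif searched was found in the 4 Nfix promoters. These were the half-site with its A and T flank (RORE, 0.7% of all promoters), the direct repeats of the half-site with a spacer of 2 bases (RevDR2, 0.00913%) and of 1 base (DR1, 0.0396%), the Onecut core ATTGAT (7.54%), the E-box CACGTG (7.15%), the T-box half-site AGGTGTGA (1.28%) and the full NFI palindrome (0.0365%). All were searched on both strands, and any match to RORE, RevDR2 or DR1 is also a match to AGGTCA. The Nfia, Nfic and Tbx4 promoters held none of the motifs, including AGGTCA.

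The 11 peaks of the Nfix window fell into a small group and a long run. The small group had 3 peaks within 13.4 kb, the run had 8 peaks within 33.1 kb, and 33.0 kb without a peak separated them. In the small group the lowest peak lay 10505 bp from the next, beyond the 10 kb used to chain runs. A peak just below the window lay 11.0 kb from it, so the make-up of the group depends on the window edge. The remaining 126.1 kb of the window, above the run, held no peak. Only 3 of the 11 peaks (27.3%, 95% exact binomial interval 6.02 to 61.0%, counting error only) were in the DBD-independent list, beside 30.4% of all ZT10 peaks. The share for the window as a whole was thus near that of the full list, and the low share was that of the run, where 1 of 8 peaks was listed (12.5%, 0.316 to 52.7%), while the small group had 2 of 3. These intervals are wide and treat neighbouring peaks as independent. The windows were chosen on this share, so the intervals are not a test against the 30.4%.

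The ZT10 list carries no score, and a peak's place in it, from 1 at the head to 11767, was used as a stand-in for strength. The small group of the Nfix window held 2 peaks from the early part of the list. The peak at chr8:87185128-87185277 stood at position 1014 and was DBD-independent, with values of 23 and 24. Its neighbour at chr8:87187864-87188013 stood at position 3212 and was DBD-independent, with values of 14 and 16. Both second values exceeded the first (ratios 1.04 and 1.14), which held for 25.5% of the 3579 DBD-independent peaks. Over that list the ratio of second to first ran only from 0.671 to 1.47, with a median of 0.889. Whether this ratio was used to form the list is not stated. The third peak of the group, at chr8:87174623-87174772, stood at position 7813 and was in the ZT10 list alone.

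The deposited distances tie the 2 listed peaks of the small group to 1 point. They were 1549 and -1187 bp, and their difference equals the 2736 bp between the peak centres, so that on the minus strand both give the same point, 87186751. On the plus strand they would give separate points, at 87183653 and 87189125; the shared point is used below. In HOMER's convention a negative distance is upstream of a transcription start, so on this reading 1 peak lay on each side of a start-like point. The third peak of the group lay 12.1 kb downstream of it, and the run of 8 lay upstream of it, at distances from -34.2 to -67.2 kb. The distances of the third peak and of the run were calculated here from the shared point and do not come from the file. For the only DBD-independent peak of the run, at chr8:87236508-87236657, the deposited distance was 11226 bp. The calculated distance of that peak was -49831 bp, so the file measures it from another point. Deposited distances over the full DBD-independent list reach from -99629 to 99816 bp. The file does not name the gene of the shared point.

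Gene order gives the candidates only by name. In the GRCm38.p6 gene table the protein-coding genes on the lower-coordinate side of Nfix were, going outward, Lyl1, Trmt1, Nacc1 and Ier2, and the next 2 on the other side were Dand5 and Gadd45gip1. Lyl1 encodes a helix-loop-helix factor of blood cells, and Ier2 is an immediate early gene. The promoter table places Nfix on the minus and Lyl1 on the plus strand. No mm9 annotation was used, so Nfix is the name of the window and not an assigned target of its peaks, and the deposited distances may refer to starts of Ier2 and Lyl1.

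Within the Nfix run 1 peak stood far ahead of the others. The peak at chr8:87231272-87231421 held position 1527, with 13.0% of the list ahead of it, and was absent from the DBD-independent list. Next came the pair at chr8:87247464-87247613 and chr8:87246851-87247000, at positions 5456 and 6138, with centres 613 bp apart. The other 5 stood at 7814, 9036, 9037, 9878 and 10722, all in the later part of the list. Thus 2 of the 8 run peaks lay in the first 5883 positions and 6 after them.

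The only DBD-independent peak of the Nfix run was also its last in the list. It lay at chr8:87236508-87236657, at position 10722, with a first value of 7, a second value of 6 and a distance of 11226 bp. This places its point at 87225356 if the strand is plus or at 87247808 if it is minus, and no second peak of the window shares either. The plus candidate was 1340 bp from the nearest peak centre of the run, at chr8:87223942-87224091. The minus candidate was 270 bp from the centre of the peak at chr8:87247464-87247613. Both candidates lie within the run, so the run's distances from the shared point need not be distances to the nearest start. On either reading the point differs from the one shared by the small group, by 38605 bp (plus) or 61057 bp (minus). Within the GRCm38.p6 tables, 1 pair on chromosome 8 had the first spacing to within 1 bp between the upper end of a gene and a plus-strand promoter's start, and it was Ier2 and Lyl1. For the second spacing, measured to minus-strand promoter starts, 0 pairs were found. This compares distances within each build and moves no coordinate between them. It takes the upper end of Ier2 as its start, which holds only on the minus strand, and the promoter table does not give that strand. Starts without a promoter entry, among them those of Nacc1, Trmt1 and Gadd45gip1, could not be found for either spacing. Ier2 and Lyl1 are thus candidates for all 3 deposited distances of the window. The match was looked for after the values were seen and is not an annotation.

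**Figure D1:**
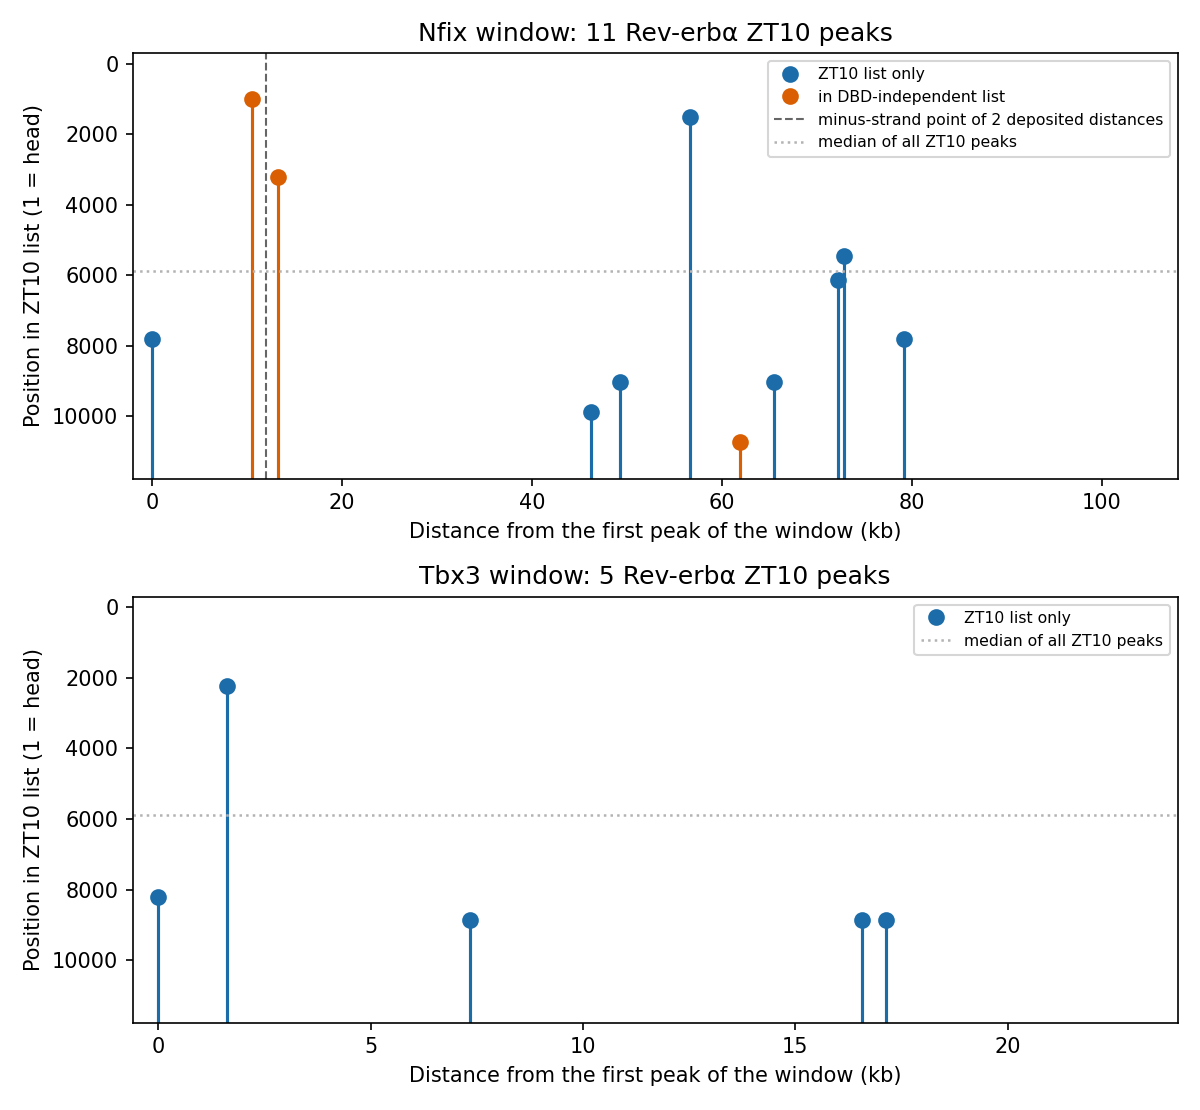
Each ZT10 peak of the Nfix window (top, 11 peaks) and the Tbx3 window (bottom, 5 peaks) is drawn at its distance in kb from the first peak of the window (x axis), with the head of the ZT10 list at the top of the y axis. Orange marks peaks of the DBD-independent list, the dashed line the minus-strand point at 87186751 and the dotted line the median position of all ZT10 peaks, 5884. The earliest peak of each run stands at 1527 and 2227. In the Nfix run the peak at 5456 also lies above the dotted line.

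All 5 peaks of the Tbx3 window formed 1 run of 17.3 kb, and 0 of 5 were DBD-independent (0.0%, exact interval 0.0 to 52.2%). The remainder of the window was empty, over 49.1 kb below and 53.7 kb above the run. The earliest peak, at chr5:120120676-120120825, stood at position 2227. It lay 1623 bp above the first peak of the run, chr5:120119053-120119202, at position 8221. The remaining 3 peaks, at chr5:120126394-120126543, chr5:120135610-120135759 and chr5:120136193-120136342, held the consecutive positions 8870, 8871 and 8872. In the Tbx3 run 1 of 5 peaks lay in the first 5883 positions, and in the Nfix run 2 of 8.

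Since no Tbx3 window peak was DBD-independent, none carries a distance or a value, and no start-like point could be derived inside the window. In the GRCm38.p6 table the nearest protein-coding genes beside Tbx3 were Med13l, which encodes a Mediator subunit, and Tbx5, a T-box factor of heart and forelimb. The peaks were not assigned to any of the 3 genes.

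Consecutive positions in the list do not rank peaks. Along the ZT10 list, entries stand in text order of chromosome and start over stretches that then begin anew, which is the layout of a list sorted by a rounded score and then by place. Ties were inferred from this order alone, since the list has no score column. Cut where this order breaks, the list gave 129 stretches, called tie groups here, and each of the 29 groups with at least 100 peaks began on chromosome 1. The Tbx3 peaks at 8870 to 8872 shared 1 tie group of 700 peaks (positions 8386 to 9085) with the Nfix run peaks at 9036 and 9037. The Nfix peaks at 7813 and 7814, which lie at opposite ends of the occupied stretch, shared another of 529 peaks. The 16 peaks thus held 11 distinct tie groups, and positions inside a group were not read as an order.

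The DBD-independent peaks of a tie group give a scale for its unlisted members, without assigning a value to any of them. In the group of position 1527 the 31 DBD-independent peaks had a median first value of 21.0 (14.0 to 28.0). In that of position 2227, the leading Tbx3 peak, 45 such peaks had a median of 17.0 (12.0 to 22.0). The group that holds 3 Tbx3 and 2 Nfix peaks had a median of 6.0 over 158 peaks, the lowest at 2.0. The leading peak of either run therefore belonged to a level of the list whose DBD-independent peaks had higher first values than those at the level of most of its neighbours. Over the full DBD-independent list the median was 12.0.

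**Figure D2:**
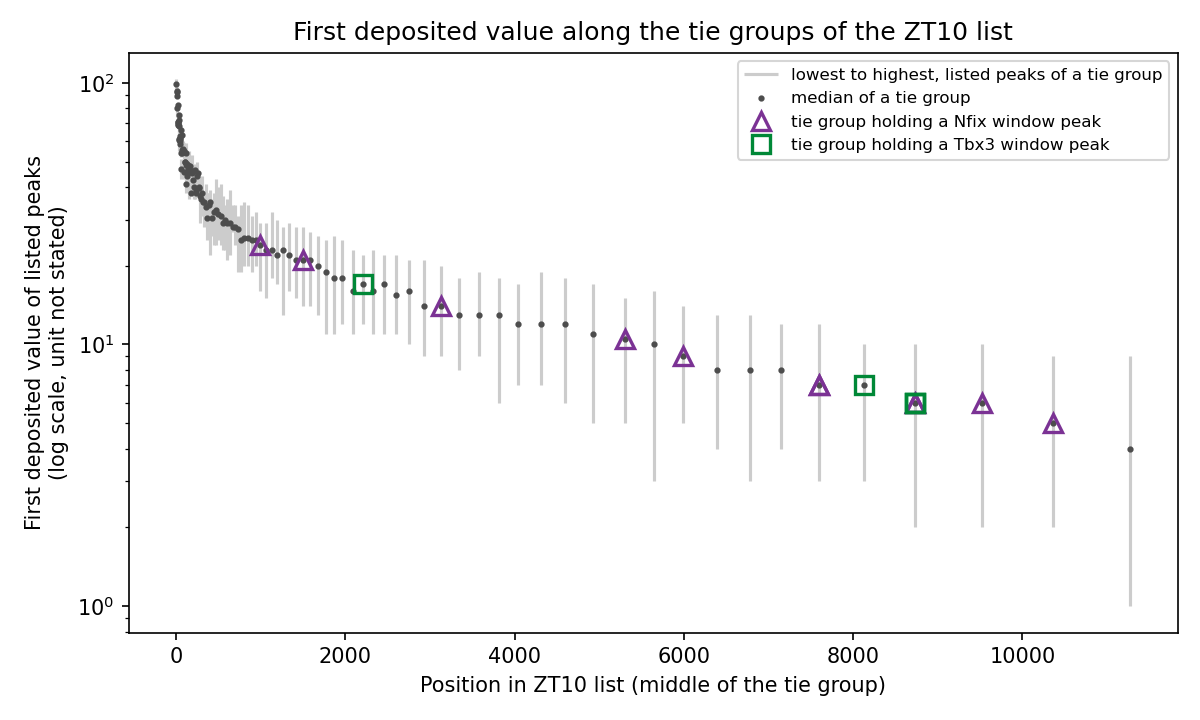
The median first value of the DBD-independent peaks in each tie group (dots, log axis, unit not stated; grey lines from the lowest to the highest value) is plotted against the middle position of the group in the ZT10 list. Triangles mark groups that hold a Nfix window peak and squares those that hold a Tbx3 window peak. Medians fall along the list, to 6.0 in the group shared by both windows.

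Since the DBD-independent share falls along the list, the windows were also set beside the shares of their own tie groups. Averaged over its 11 peaks, the Nfix window's groups had a share of 28.9%, against 27.3% in the window. For the 8 peaks of the Nfix run alone no average was made. Their groups had shares from 11.0 to 39.2%, against 12.5% in the run. For the 5 Tbx3 peaks the average was 25.3%, against 0.0% in the window. The group of 700 peaks that holds 3 of the 5 had 22.6%. These are descriptions of windows selected on that share, and nothing particular to them follows.

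Runs as long as these were few in the ZT10 list. When peaks under 10 kb apart were chained, 8118 peaks stood alone, and 16 runs reached at least 5 peaks. These 16 held 85 peaks, 0.722% of the list, of which the Nfix and Tbx3 runs supplied 13. The Nfix run was the longest, followed by 2 runs of 6 peaks, and Tbx3 was 1 of 13 runs of 5. This ranking is given at the 10 kb gap only. In the 2 windows 10 of 11 and 5 of 5 peaks had another ZT10 peak within 10 kb, beside 31.0% of all ZT10 peaks. Because runs chose the windows, those counts follow from the choice. Of 4869 stretches of 210 kb with at least 1 peak, 3 held 11 or more, and of 6302 such stretches of 120 kb, 242 held 5 or more. Those are 0.0616% and 3.84% of the stretches. The stretches came from a fixed grid, whereas the windows were placed around runs already seen. The Nfix peaks themselves lie in 1 of the 3 stretches, which holds 12 peaks, and a grid line splits the Tbx3 run. Both shares are therefore description and do not measure chance.

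Among the 16 longest runs, Nfix and Tbx3 had the latest median positions. The median was 8425.0 for the 8 Nfix run peaks and 8870.0 for the 5 Tbx3 peaks. The 14 other runs had medians from 922.0 to 7321.0, and 0 of 14 exceeded either. The median was 5884.0 over the whole ZT10 list and 6744.5 over its peaks that are not DBD-independent. The earliest peak of the run did not stand apart in the same way: 1527 and 2227 fell within the range of 105 to 3940 in the other runs. Mean spacing between neighbouring centres was 4.71 kb in the Nfix run and 4.29 kb in the Tbx3 run, beside a median of 4.43 kb (0.588 to 7.54 kb) in the others. The nearest of the others was the run at chrX:11850307-11864347, with a median of 7321.0 and, like Tbx3, 1 of 5 peaks in the first 5883 positions, although 4 of its 5 peaks were DBD-independent. The windows were chosen for absence from a list whose share falls along the ZT10 list, so late positions follow in part from that choice, and the order of the runs is a description without a test.

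DBD-independent peaks were present in every other long run. In the 14 other runs 29 of 72 peaks were DBD-independent (40.3%), beside 30.4% of all ZT10 peaks. The medians of those runs had a median of 3508.75, earlier than the 5884.0 of the whole list. In the first 5883 positions 2393 peaks were DBD-independent, and in the later 5884 positions 1186. The 40.3% was not set beside the shares of the runs' own tie groups, so no excess follows. Of the 14 other runs 0 lacked a DBD-independent peak, so Tbx3 was the only run of at least 5 without any. Absence from that list was used to choose the windows, so this is a description and nothing particular to Tbx3 follows. The runs most like Nfix in length, both on chromosome 11, were at chr11:90110385-90133455, with 2 of 6 listed, a median position of 3355.5 and an earliest peak at 882, and at chr11:100242972-100259305, with 1 of 6 listed, a median of 6813.0 and an earliest peak at 3940. The second of these resembled the Nfix run in both its listed share, 16.7% against 12.5%, and its late median.

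**Figure D3:**
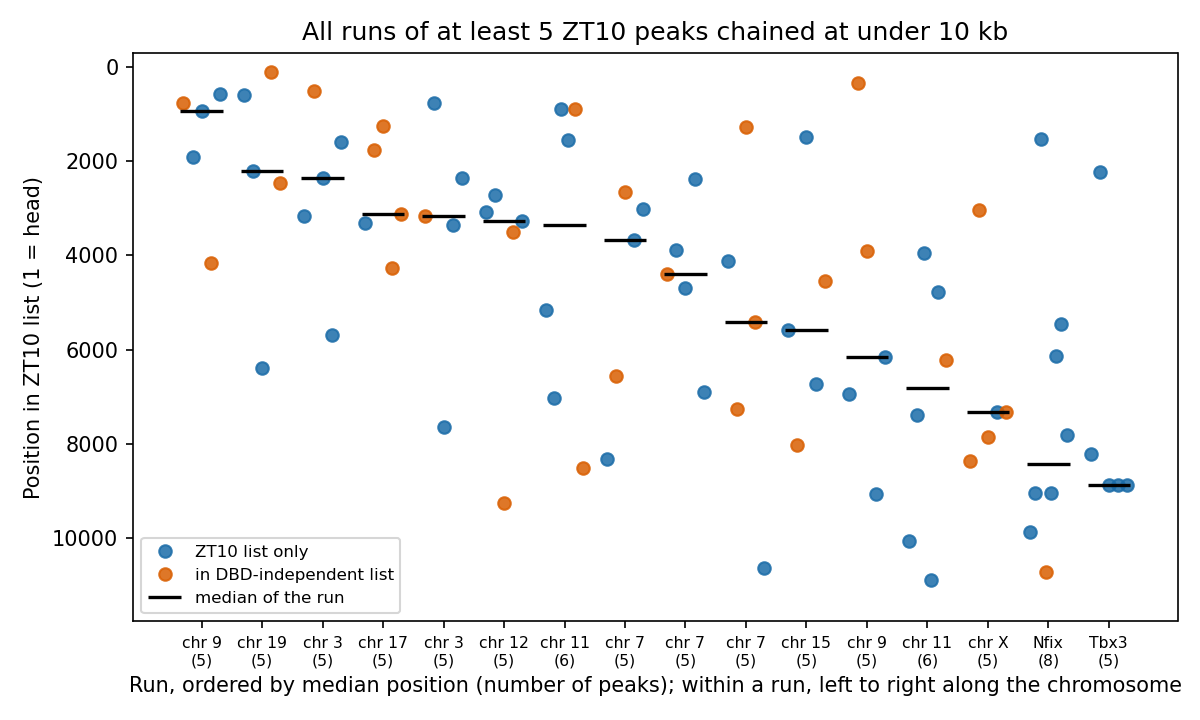
Positions in the ZT10 list (y axis, head at the top) are shown for every peak of the 16 runs of at least 5 peaks, ordered by the median (black bars), with the number of peaks in brackets and orange for DBD-independent peaks. Nfix and Tbx3 stand last, with medians of 8425.0 and 8870.0. The Tbx3 run alone shows no orange point, a trait used in choosing its window.

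At the window edges, the nearest peaks left out were mixed. Below the Nfix window a peak at chr8:87163620-87163769 (position 3014, not listed) lay 11.0 kb from the first peak inside. Above it the next peak, chr8:87432383-87432532, was 178.6 kb beyond the run; it stood at position 2527 and was DBD-independent, with values of 13 and 17 and a distance of -66 bp. Below the Tbx3 window, 88.2 kb from the run, chr5:120030864-120031013 stood at position 427 and was DBD-independent, with values of 36 and 25 and a distance of -571 bp. Above it, chr5:120245751-120245900 (position 10549, not listed) was 109.6 kb away. Both DBD-independent peaks among these nearest outside peaks thus lay within 1 kb of their own start-like points.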

How the data were processed

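ChIP-seq of Rev-erbα was made in 6 mouse livers, 3 wild-type and 3 HNF6 KO. Bowtie, HOMER and build mm9 are named in the submitters' processing notes; settings, pooled samples and the rule behind the DBD-independent list are not stated there. The deposited files are 2 lists of 150 bp peaks, and per the file contents 2 columns hold an unlabelled score, used only to describe peaks within that list. Depth per sample is unknown. Peaks were assigned to a window by their centre, matched between lists at 1 bp overlap and chained at under 10 kb. Coordinates are 1-based. Tie groups were defined after the data had been seen. The windows, members and lists were chosen with earlier results of these data known. Named genes are those of the windows, their neighbours in the gene table, the NFI family and Tbx2 to Tbx5. Peaks are not replicates, so no test was made, and the planned wild type against HNF6 KO fit needs values per sample. Alternatives were other window edges, overlap rules, chaining gaps, neighbour windows and tiles. Python 3.11.15, numpy 2.4.6, pandas 2.3.3, SciPy 1.17.1 (95% exact intervals) and matplotlib 3.10.9 were used. The routines were tested on simulated data, part of it built on the coordinates of the ZT10 peaks.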

Additional observations from a re-analysis of the deposited data

How the results depend on the processing

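Of 34 alternatives to 12 values (6 for each window), 28 stayed within 1.5 times a count, the exact interval of a share or 1 SD of a position, and 6 moved. With a chaining gap of 5 kb the longest run held 2 peaks in the Nfix window and 2 in the Tbx3 window, against 8 and 5 at 10 kb and at 20 kb, so both runs rest on spacings of 5 to 10 kb. The median number of neighbours per peak, 2.0 within 10 kb in either window, was 1.0 within 5 kb in both, and within 50 kb 7.0 for Nfix and 4.0 for Tbx3; a wider window cannot hold fewer. Narrowing the windows by 20 kb on each side removed the small group at Nfix and left 8 peaks, of which 12.5% were DBD-independent. Against 27.3% in the full window this counted as unmoved only because the exact interval is wide. The overlap rules changed no membership, since shared peaks have identical coordinates, which is no sign of robustness. The same holds for several settings at Tbx3, where the window edges lay 49.1 and 53.7 kb from the run. Shifted edges, whole peaks, unlisted peaks only and the longest run only all returned the same 5 peaks there. The number of unmoved values is therefore no measure of robustness. The longest-run alternatives were added after seeing the data. No paired analysis was possible because neither peak list has values for single replicates, and no replicate could be left out for the same reason. Position is only a stand-in for strength.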
